A study of Mus musculus with 2 samples.

Results

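The 10 genes described here are the core activators of the circadian clock Arntl (also called Bmal1) and Clock, the repressors Per1, Per2 and Per3, the nuclear receptor repressors Nr1d1 and Nr1d2 (REV-ERB alpha and beta), and the PAR bZIP transcription factors Dbp, Tef and Hlf. They were taken by gene symbol from the transcript models of 2 long-read RNA-seq libraries of mouse heart, and the reads of all models of a gene were summed. All 10 had reads in replicate 1 and 9 in replicate 2, of 15410 annotated mouse genes with reads in either library. The tissue is labelled as adult male heart of B6CASTF1/J, the F1 cross of C57BL/6J and CAST/EiJ, aged 18 to 20 months, and each library was made from 2 µg of RNA. Both libraries form 1 group, carry the same donor identifier and are labelled as separate biological replicates, so the series holds no contrast between conditions. The labels give no time of day at which the tissue was taken.

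In the circadian clock of mammalian cells, the ARNTL and CLOCK proteins bind E-box sequences as a pair and activate the Per and Cry genes, whose proteins then repress that pair. In a second loop, the REV-ERB receptors repress Arntl through response elements in its promoter. The PAR bZIP factors are themselves E-box targets and pass the rhythm on to genes with D-box sequences. In heart muscle this machinery is known to drive daily rhythms in metabolic and ion channel genes, and several of the 10 transcripts swing widely over the day.

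Replicate 1 held 688861 mouse reads and replicate 2 held 1003999. One read therefore weighed more in replicate 1, and a count of 0, taken to allow up to 3 counts, allowed up to 4.36 counts per 1e6 mouse reads (CPM) there and up to 2.99 CPM in replicate 2. The heart markers were in place: the 7 cardiomyocyte markers reached 38950 CPM and 41054 CPM in sum, and the 5 skeletal muscle markers had no read in either library. The 4 adipocyte markers reached 244 CPM in the first library and 37.8 CPM in the second, and the 5 fibroblast markers 684 and 511 CPM. In bulk tissue, fewer cells of a type and less RNA per cell cannot be told apart. All tests below compare these 2 libraries on their reads, not conditions. They weigh a difference only against the error of counting reads, and since the labels do not say whether the libraries came from separate animals, the spread between them may be technical.

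The 10 genes together had 140 reads in replicate 1 and 175 in replicate 2, which is 203 and 174 CPM, or 189 ± 20.5 CPM (SD, n = 2). Tef, Nr1d1 and Arntl were the highest and the 3 Per genes among the lowest. A long read is counted once whatever its length, so reads were ranked as they are, and also after division by the mean length of the models that held them. On the CPM scale the order of mean levels was Tef, Nr1d1, Arntl, Nr1d2, Dbp, Clock, Hlf, Per1, Per2 and Per3. The values of both libraries did not overlap between neighbours for the first 3 steps of this order, and overlapped for every later step. The exact counting intervals of neighbours overlapped at these 3 steps as well, in each library. In replicate 1 they ran from 33.0 to 67.3 CPM for Tef and from 28.2 to 60.5 CPM for Nr1d1. Those of Arntl and Nr1d2 there were 20.0 to 48.4 CPM and 13.3 to 37.7 CPM. Counting error thus leaves the order of these neighbours unsettled, and no test between them was run. On the scale of CPM per kb of model the order was Nr1d1 at 23.3, Tef at 15.2, Arntl at 11.6, Dbp at 10.7, Nr1d2 at 6.97, Per1 at 4.26, Clock at 3.60, Hlf at 1.75, Per2 at 1.16 and Per3 at 0.657. The same genes, Nr1d1, Tef and Arntl, led on both scales. Incomplete models shorten the mean model length and so raise the value per kb. For Nr1d1 this mean was 1757 nt, against 2721 nt for its annotated coding transcript. For Per1 it was 1490 nt, against 4671 nt for the longest coding transcript. Among all annotated genes with reads, whose median level was 8.38 CPM, Tef stood at percentile 81.8 and Arntl at 75.0, while Clock stood at 53.1, Per1 at 44.7 and Per3 at 11.6.

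**Figure D1:**
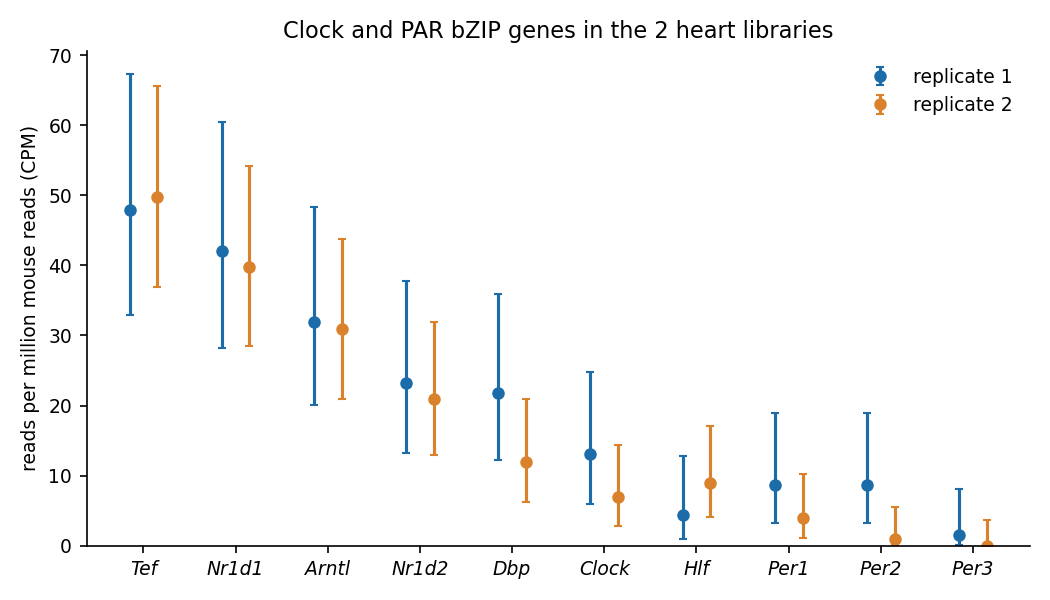
Level of each gene in CPM (linear axis) in replicate 1 (blue) and replicate 2 (orange), ordered by mean level; points are the libraries and bars are exact 95% counting intervals. Tef lies at 47.9 and 49.8 CPM, and the intervals of the libraries overlap for every gene.

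Of the 10 genes, 8 reached a total of 10 reads over the libraries and were tested. None of them differed between the libraries by an exact two-sided binomial test adjusted over all 8836 genes tested, of which 3.36% were called. None of the 8 had an unadjusted p below 0.05 in this test, against 1061 of all 8836 genes tested, and with 8 genes a count of 0 is near that background. The log2 ratios of replicate 2 to replicate 1 had a median of -0.11 and a range from -0.96 to 0.90, against a median of -0.057 over all genes tested. At these depths the intervals of the folds, given below, leave room for changes in either direction.

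**Figure D2:**
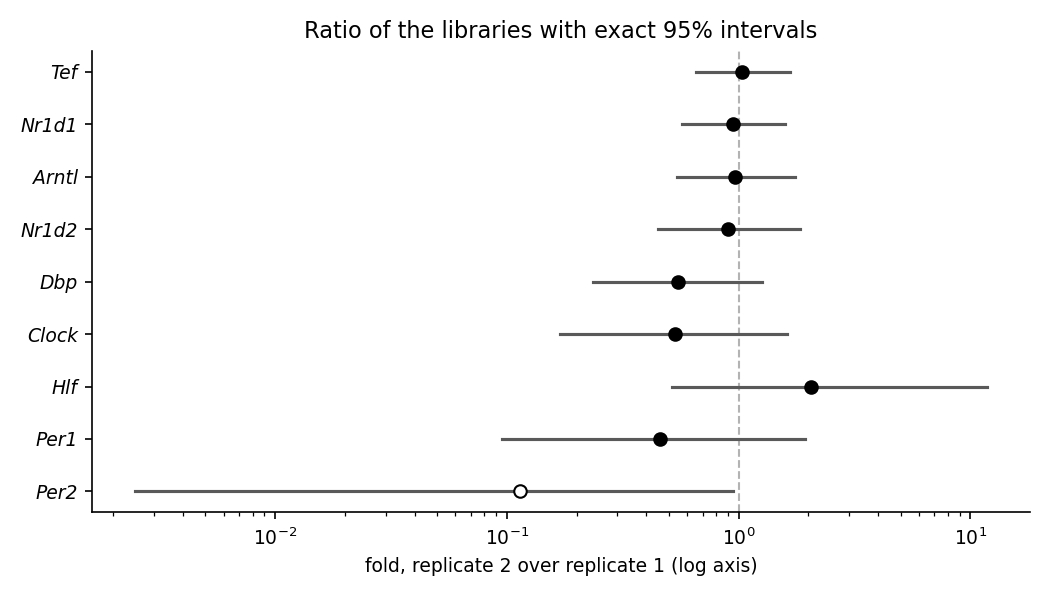
Fold of replicate 2 over replicate 1 (log axis) with exact 95% intervals; the open symbol is a gene with too few reads for the test, and Per3, without reads in replicate 2, is left out. Intervals of the 8 tested genes all include 1, and that of Hlf runs from 0.514 to 11.8.

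Arntl lies on the plus strand of chromosome 7 at chr7:113207465-113314126 (mm10) and encodes the activator that is required for the clock to run. It had 22 reads (31.9 CPM) in replicate 1 and 31 reads (30.9 CPM) in replicate 2, a mean of 31.4 ± 0.750 CPM (SD, n = 2). The libraries were close, with a fold of 0.967 (95% interval 0.542 to 1.75; exact binomial test, adjusted p = 1). Arntl held 9 of the 18 unannotated junctions found in the 10 genes. Its annotated 20-exon transcript Arntl-201, of 2908 nt, took 7 of 22 reads and 15 of 31 reads, which is 31.8% and 48.4%. Another 13 and 14 reads fell on 12 new spliced models, most of which ran from an annotated start to the annotated 3′ end of the gene. Many deposited new models have ends that were set to annotated ends. Starts and ends given here and below are those of the models and need not be mapped ends of reads. The Arntl-201 share did not differ by Fisher's exact test (p = 0.268, adjusted p = 1).

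The most frequent unannotated feature was an acceptor of exon 13 that lies 3 nt downstream of the annotated one. This junction joined exon 12 to position 113299190 and left out the coding bases CAG at chr7:113299187-113299189. It was found in 7 of the 21 reads that cover the site in replicate 1, or 33.3% (exact 95% interval 14.6 to 57.0), and in 7 of 29 reads in replicate 2, or 24.1% (10.3 to 43.5). The mean share was 28.7% ± 6.50 (SD, n = 2), and the libraries did not differ by Fisher's exact test (p = 0.534, adjusted p = 0.826 over 13 splice and model choices). Exon 13 is coding over all of its 247 nt, so the shorter form keeps the reading frame and lacks 1 codon's worth of bases. Whether these reads reflect splicing or a 3-nt difference between the parental genomes of this F1 cross was not tested. The second most frequent Arntl model, a 20-exon form of 2844 nt with 4 and 3 reads, carried this acceptor and otherwise had the introns of Arntl-201. Both forms of the exon 12 to exon 13 junction are shown because this is the splice difference with the most reads among the 10 genes. Capitals mark the 3 nt that only the annotated form holds.
Arntl annotated acceptor: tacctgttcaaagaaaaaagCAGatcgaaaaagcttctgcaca
Arntl acceptor 3 nt downstream: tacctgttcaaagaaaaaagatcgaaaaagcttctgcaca

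The 5′ untranslated part of Arntl also varied. Exon 3 (chr7:113274626-113274753, 128 nt) and exon 4 (chr7:113279457-113279582, 126 nt) are both noncoding in Arntl-201. Exon 3 was skipped in 3 of 19 reads in replicate 1, or 15.8% (3.38 to 39.6), and in 8 of 29 reads in replicate 2, or 27.6% (12.7 to 47.2). In 3 and 5 of these reads exon 2 was joined directly to exon 4, a junction that the annotation lacks and that both libraries held. Exons 3 and 4 were skipped together in 0 of 19 reads, which allows a share of up to 17.6% by the exact interval, and in 3 of 29 reads. A 19-exon model of 2719 nt without exon 3 had 2 and 3 reads.

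A small coding exon of 21 nt at chr7:113281402-113281422 is annotated in Arntl-206. It was kept in 3 of 21 reads in replicate 1, or 14.3% (3.05 to 36.3), and in 1 of 29 reads in replicate 2, or 3.45% (0.0873 to 17.8). The libraries did not differ by Fisher's exact test (p = 0.297, adjusted p = 0.826). The exon is shown in capitals within its flanks because its length is a multiple of 3 and its inclusion lengthens the reading frame.
Arntl 21-nt exon: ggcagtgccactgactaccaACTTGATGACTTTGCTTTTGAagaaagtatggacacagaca

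**Figure D3:**
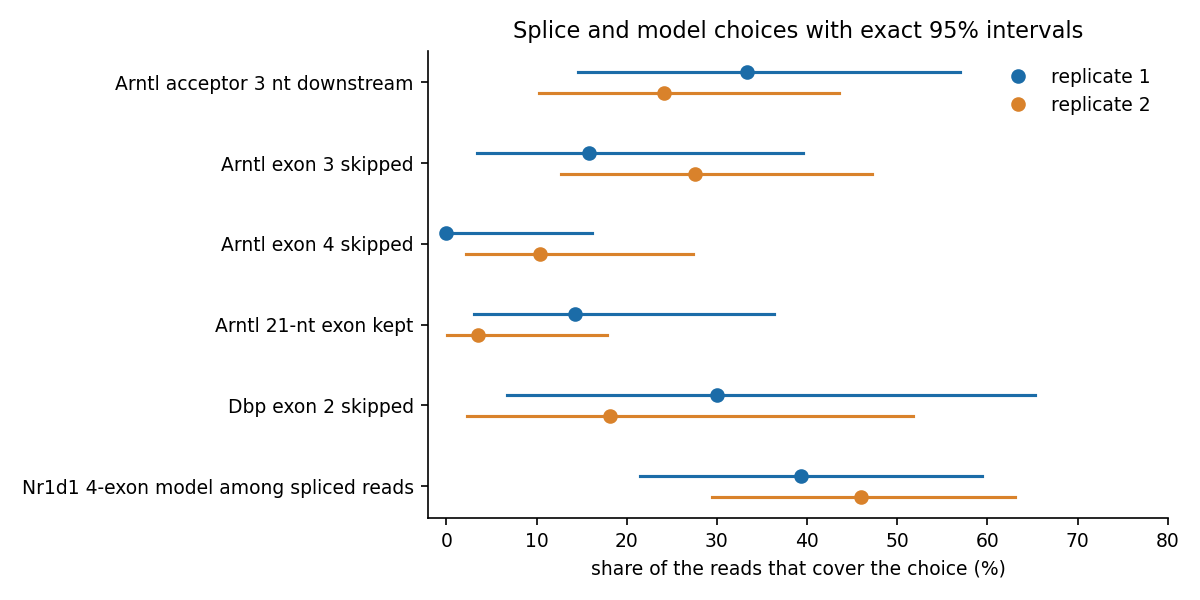
Share of the reads covering each splice or model choice of Arntl, Dbp and Nr1d1 (percent) in replicate 1 (blue) and replicate 2 (orange), with exact 95% intervals. The Arntl acceptor 3 nt downstream of the annotated one was used by 33.3% and 24.1% of reads, and the intervals of the libraries overlap for every choice.

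Clock, the partner of Arntl, lies on the minus strand at chr5:76209868-76304792. It had 9 reads (13.1 CPM) in replicate 1 and 7 reads (6.97 CPM) in replicate 2, a mean of 10.02 ± 4.31 CPM (SD, n = 2). Replicate 2 was lower, at a fold of 0.534 (0.169 to 1.61), which did not pass the exact binomial test (adjusted p = 0.718). Most Clock reads lay on short models at the annotated 3′ end of Clock-201. Single-exon models, all of which the authors class as genomic, held 6 of 9 and 5 of 7 reads. The level of Clock thus rests mostly on reads of that class. Models that end at the annotated 3′ end of Clock-201, at position 76212177, held 8 of 9 and 5 of 7 reads. This position need not be a mapped end of the reads. The 2 single-exon models with at least 5 reads were 840 nt long in replicate 1 and 376 nt in replicate 2. The 9744-nt transcript Clock-205, of 23 exons, was read once in each library. A pseudogene on the same strand inside the locus, Ube2n-ps1, had 5 reads in each library and was counted as its own gene.

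The Period genes encode the repressors that close the main loop. Per1 (chr11:69095217-69109960, plus strand) had 6 reads (8.71 CPM) in replicate 1 and 4 reads (3.98 CPM) in replicate 2, a fold of 0.457 (0.0949 to 1.93; exact binomial test, adjusted p = 0.831). Per2 (chr1:91415982-91459324, minus strand) had 6 reads (8.71 CPM) and 1 read (0.996 CPM), a ratio of 0.114 with a counting interval of 0.0025 to 0.943. Per3 (chr4:151003652-151044665, minus strand) had 1 read (1.45 CPM) in replicate 1 and 0 in replicate 2, where the two-sided exact 95% interval drawn in the plot of levels reaches 3.67 CPM. Per2 and Per3 had too few reads for the test over genes. Without a minimum of reads, Per2 had an unadjusted exact p of 0.0207 and an adjusted p of 0.450. All 3 genes had a higher CPM in replicate 1, with 18.9 CPM in all against 4.98 CPM. This difference rests on 13 and 5 reads.

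Full-length reads were scarce for the Per genes. No read was assigned to an annotated coding transcript of Per1, whose longest is 4671 nt, and all 10 Per1 reads lay on incomplete models that shared 1 annotated 3′ end, at position 69109948. Of the Per2 reads, 1 in replicate 1 covered all 23 exons of the 5833-nt coding transcript. The other 5 reads of replicate 1 were incomplete models of 5 to 14 exons that ended at the same 3′ end, and the 1 read of replicate 2 was a single-exon model there. The Per3 read was a single-exon model of 1104 nt at the annotated 3′ end of the gene. New antisense models within the loci held 2 and 3 reads at Per1 and 1 and 2 reads at Per3. Arntl, Clock, Hlf and Tef also held new antisense models with few reads. Whether the authors' assignment of strand affects these counts was not tested.

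Nr1d1, which represses Arntl and is among the most rhythmic transcripts of many tissues, lies on the minus strand at chr11:98767932-98775333. It had 29 reads (42.1 CPM) in replicate 1 and 40 reads (39.8 CPM) in replicate 2, a mean of 41.0 ± 1.60 CPM (SD, n = 2). The libraries were close, with a fold of 0.946 (0.572 to 1.58; exact binomial test, adjusted p = 1). The model with the most reads was not the annotated 8-exon coding transcript of 2721 nt but an incomplete 4-exon model of 1124 nt. This shorter model held 11 of 29 reads, or 37.9%, in replicate 1 and 17 of 40 reads, or 42.5%, in replicate 2, and the 8-exon transcript held 9 and 15 reads. Its share did not differ between the libraries by Fisher's exact test (p = 0.806, adjusted p = 1).

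The 4-exon Nr1d1 model shares the last 3 exons of the 8-exon transcript and begins inside its exon 5 at position 98770426, which is the annotated start of the noncoding transcript of the gene. Many new models in these files have ends that were set to annotated ends, so the position of this start is that of the annotation and not a mapped 5′ end. Among spliced Nr1d1 reads the model made up 39.3% (21.5 to 59.4) in replicate 1 and 45.9% (29.5 to 63.1) in replicate 2. The 3′ end of Nr1d1 overlaps that of Thra, the thyroid hormone receptor alpha gene on the opposite strand, and Thra models that overlap Nr1d1 had 16 and 26 reads.

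**Figure D4:**
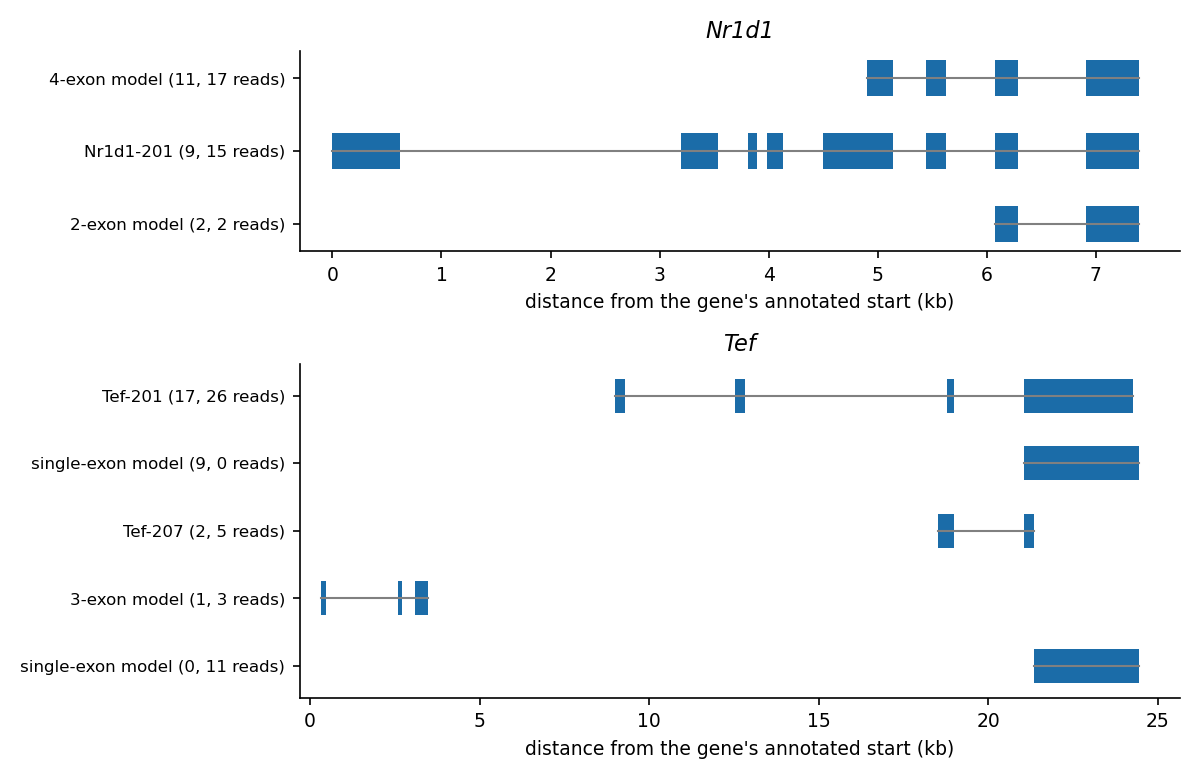
Exon maps of the Nr1d1 and Tef models with at least 4 reads, drawn to scale as distance from the annotated start of each gene (kb) in the direction of transcription, with the reads of replicate 1 and replicate 2 in brackets. The 4-exon Nr1d1 model begins inside exon 5 of the 8-exon transcript and has 11 and 17 reads, and the Tef reads on Tef-201 number 17 and 26.

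Nr1d2, the second REV-ERB receptor, lies on the minus strand at chr14:18204054-18239127. It had 16 reads (23.2 CPM) in replicate 1 and 21 reads (20.9 CPM) in replicate 2, a mean of 22.1 ± 1.63 CPM (SD, n = 2). The fold was 0.901 (0.448 to 1.85; exact binomial test, adjusted p = 1). Unlike Nr1d1, its leading model was the annotated 8-exon coding transcript, of 4663 nt, with 8 and 10 reads. The 5-exon retained-intron transcript of 1680 nt had 3 and 2 reads. A single-exon model of 324 nt at the 3′ end had 5 reads in replicate 2 and none in replicate 1. The annotation holds a near-identical copy of Nr1d2, AC170187.1, with 96.3% identity over 1385 nt, to which no read was assigned in either library. Whether any read could have been given to either copy was not tested, so the Nr1d2 counts are uncertain to that extent.

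Tef, an activator of D-box genes, lies on the plus strand at chr15:81802421-81826863 and had the most reads of the 10 genes. It had 33 reads (47.9 CPM) in replicate 1 and 50 reads (49.8 CPM) in replicate 2, a mean of 48.9 ± 1.34 CPM (SD, n = 2). The fold was 1.04 (0.657 to 1.67; exact binomial test, adjusted p = 1). The 4-exon transcript Tef-201 of 4079 nt led with 17 of 33 reads, or 51.5%, and 26 of 50 reads, or 52.0%, and these shares did not differ by Fisher's exact test (p = 1). Tef has an upstream first exon, used by Tef-202, and a downstream one, used by Tef-201. Among reads that show a first exon, 17 of 22, or 77.3% (54.6 to 92.2), began at the Tef-201 exon in replicate 1 and 26 of 32, or 81.3% (63.6 to 92.8), in replicate 2. Tef-202, whose reads run from the upstream exon to the end of the gene, had 2 and 1 reads.

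Among the few Tef reads from the upstream start, 2 of 4 in replicate 1 lay on models that end before the start of Tef-201. The exact interval of that share was 6.76% to 93.2%. In replicate 2, 5 of 6 did, with an interval of 35.9% to 99.6%. These models are the annotated Tef-204 and Tef-209 or end at the annotated end of Tef-204 or Tef-208. The most frequent of these was a 3-exon model of 632 nt with 1 and 3 reads, which holds a junction from position 81805122 to 81805531 that the annotation lacks. The last exon of Tef also gave single-exon reads, 9 on a 3398-nt model in replicate 1 and 11 on a 3085-nt model in replicate 2. The authors' files class the first model as incomplete and the second as genomic, although both lie in the last exon and end at the 3′ end of Tef-202. The retained-intron transcript Tef-207 had 2 and 5 reads.

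RefSeq promoter windows, from 250 bases before to 50 bases after a start (GRCm38.p6, the same build as mm10), were found for 9 of the 10 genes, with 14 windows in all. No entry was found for Per2. The E-box CACGTG, the sequence that the ARNTL and CLOCK pair binds, was searched on both strands and stood in 3 of these 14 windows, against 7.15% of all 32851 windows. The 3 belong to Per1 and to both Tef starts. The E-box variant CACGTT stood in the Nr1d1 window only, 28 bases before the start, and in 4.68% of all windows. The nuclear receptor half-site AGGTCA, the core of the elements that REV-ERB receptors bind, stood in 1 window each of Arntl, Clock, Nr1d2 and Per1, and in 16.3% of all windows. The D-box TTATGTAA stood in the Per3 window and in 0.938% of all windows, and the palindrome TTACGTAA in none of the 14 and in 0.119% of all. These matches describe letters in the reference sequence and show no binding. Sequence outside these windows was not searched, so a gene without a match may hold the element elsewhere.

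The E-boxes of Per1 and Tef are printed because Tef was the highest of the 10 genes by reads and its E-boxes lie before both of its RefSeq starts. Capitals mark the E-box, on the plus strand in each. The Per1 stretch is chr11:69098771-69098800, 166 bases before the RefSeq start. The upstream Tef stretch is chr15:81802534-81802563, 127 bases before a RefSeq start, but downstream of the GENCODE start of Tef-202 and inside its first exon. The third sequence is the 250 bases before the start of Tef-201 (chr15:81811164-81811413), the start that most first-exon reads used, with its E-box 138 bases before that start.
Per1 E-box: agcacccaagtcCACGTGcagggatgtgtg
Tef upstream E-box: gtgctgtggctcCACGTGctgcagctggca
Tef-201 promoter: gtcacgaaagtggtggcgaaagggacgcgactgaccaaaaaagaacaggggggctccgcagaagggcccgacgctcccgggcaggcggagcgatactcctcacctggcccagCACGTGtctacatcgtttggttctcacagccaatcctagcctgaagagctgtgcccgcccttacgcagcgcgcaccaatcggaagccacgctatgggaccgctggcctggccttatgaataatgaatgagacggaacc

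Dbp, the PAR bZIP factor with the strongest known daily rhythm, lies on the plus strand at chr7:45705088-45710203 and overlaps Sphk2 on the opposite strand. It had 15 reads (21.8 CPM) in replicate 1 and 12 reads (11.95 CPM) in replicate 2, a mean of 16.9 ± 6.95 CPM (SD, n = 2). Replicate 2 was lower, at a fold of 0.549 (0.235 to 1.26), which did not pass the exact binomial test (adjusted p = 0.590). Most Dbp reads lay on annotated coding transcripts. The 4-exon Dbp-201 of 1837 nt had 7 and 9 reads, and the annotated coding transcripts together had 10 of 15 and 11 of 12 reads. The 3-exon Dbp-204, which lacks exon 2 (chr7:45706606-45707016, 411 nt, all coding), had 3 and 2 reads. Exon 2 was thus skipped in 3 of 10 reads (exact interval of the share 6.67% to 65.2%) and 2 of 11 reads, or 18.2% (2.28 to 51.8), that cover the choice. Both junctions are shown because they distinguish the transcripts with and without this coding exon. Capitals mark the bases after the junction with exon 1.
Dbp exon 1 to exon 2: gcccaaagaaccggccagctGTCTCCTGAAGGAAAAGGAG
Dbp exon 1 to exon 3: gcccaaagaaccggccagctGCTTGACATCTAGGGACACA

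Hlf, the third PAR bZIP factor, lies on the minus strand at chr11:90336536-90390895. It had 3 reads (4.36 CPM) in replicate 1 and 9 reads (8.96 CPM) in replicate 2, a mean of 6.66 ± 3.26 CPM (SD, n = 2). It was the only tested member besides Tef with a fold above 1, at 2.06 (0.514 to 11.8; exact binomial test, adjusted p = 0.865). The coding transcript Hlf-201 of 5642 nt had 1 and 2 reads, and the noncoding Hlf-203 also had 1 and 2. New antisense reads in the locus numbered 2 and 4. Summed by role, the 3 PAR bZIP genes had 74.0 and 70.7 CPM, the Nr1d pair 65.3 and 60.8 CPM, and Arntl with Clock 45.0 and 37.8 CPM. The Per genes had the lowest sum in both libraries.

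The classes of the models that held the reads were set beside those of all annotated genes, with no test. Known transcripts took 45.7% (37.3 to 54.3) of their reads in replicate 1 and 53.1% (45.5 to 60.7) in replicate 2, against 74.8% and 72.4% over all annotated genes. New spliced models took 12.9% and 14.3%, against 6.79% and 6.36%, and 27 of these 43 reads were of Arntl. Incomplete models took 33.6% and 13.7%, against 12.6% and 14.9%. Models that the deposited tables class as genomic took 7.86% and 18.9%, against 5.82% and 6.38%. The 20 single-exon Tef reads, classed differently in the libraries, move with this shift between the classes. Lengths differ widely between these genes, and neither lengths nor levels were matched in this comparison. The shares over all annotated genes are pooled over reads, so genes with many reads weigh most.

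**Figure D5:**
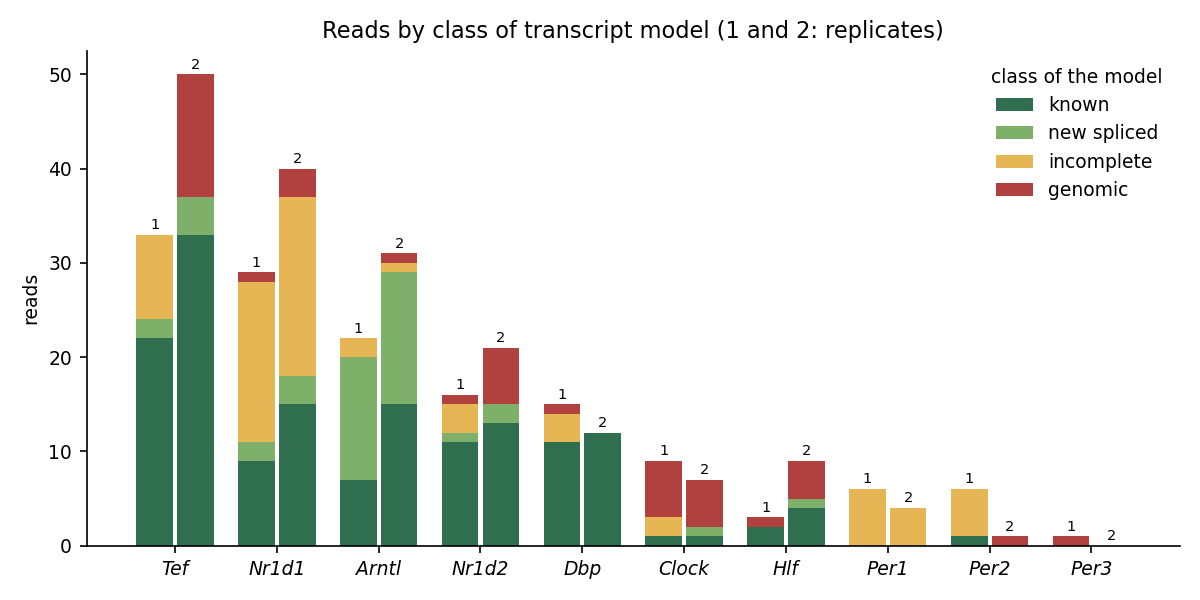
Reads of each gene by class of transcript model, stacked, with 1 bar for each replicate (numbered above the bars). Arntl has the most reads on new spliced models, 13 and 14, and Per1 has reads on incomplete models only.

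In all, the 10 genes had 83 distinct models, of which 22 were found in both libraries and held 88 of 140 and 125 of 175 reads. Of 17 known models 13 recurred, and of 66 new models 9 recurred. A model with 1 read in all cannot recur, and each known model that did not recur had 1 read. New single-exon models were matched only where their spans were the same. The counts of recurring models therefore depend on the number of reads and on the matching. The models held 18 unannotated junctions: 9 in Arntl, 4 in Nr1d2, 3 in Nr1d1 and 2 in Tef. Of these, 3 were found in both libraries, the Arntl acceptor, the Arntl junction of exon 2 to exon 4 and the Tef junction. Each of the other junctions had 1 read in all, so none of them could be found in both. In the test of the share of the top transcript, 3 of the 10 genes had at least 20 reads in each library, and none was called. Over all 4087 genes tested in this way, 0.710% were called.

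A list of other clock genes was read from the same test. Of 18 listed, 16 had reads, 11 were tested and none was called. The exact binomial test gave an unadjusted p below 0.05 for 3 of them, against 1061 of all 8836 genes tested. These 3 are named here after their values were seen: Timeless, Csnk1e and Btrc, with adjusted p between 0.127 and 0.367. The listed genes came to 454 and 426 CPM in all. Csnk1d, a kinase that phosphorylates the PER proteins, had 72.6 and 77.7 CPM. Nfil3, a repressor that competes with the PAR bZIP factors for D-boxes, had 37.7 and 42.8 CPM. Arntl2 and Rorb had no reads, for which the limits of a count of 0 given above hold.

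Among 13 genes known as clock outputs in heart, all had reads and 12 were tested. Of these, 1 was higher in replicate 2, where 1.36% of all genes tested were called higher, and 3 were lower, where 2.00% were called lower. These shares include genes with a total of only 10 reads, whereas the called outputs stood at percentiles 92.0 to 98.9 of level. A test on counts calls genes with many reads more readily, and no share over genes of like level was computed. Pdk4, which restrains glucose oxidation, was higher in replicate 2, at 534 CPM against 276 CPM, a fold of 1.94 (1.64 to 2.30; exact binomial test, adjusted p = 1.03e-13). Klf15, a clock-driven regulator of nutrient use, was lower in replicate 2, at 111 CPM against 183 CPM, a fold of 0.604 (0.464 to 0.786; exact binomial test, adjusted p = 0.00562). Kcnip2, a subunit of the transient outward potassium channel, was also lower, at 89.6 CPM against 148 CPM, a fold of 0.605 (0.451 to 0.812; exact binomial test, adjusted p = 0.0196). Kcnip2 kept its direction but was no longer called with known transcripts only, without genomic models, or without incomplete and genomic models, with log2 ratios of -0.68, -0.62 and -0.61 against -0.72. Dgat2, an enzyme of triglyceride synthesis, was lower by less, at 784 CPM against 1015 CPM, a fold of 0.772 (0.697 to 0.857; exact binomial test, adjusted p = 6.01e-05). Tcap, a protein of the Z-disc, was the highest of the list at 3141 and 3289 CPM and was not called. The adipocyte markers, of which 2 of 4 were tested and both were lower in replicate 2, moved in the same direction as Klf15, Kcnip2 and Dgat2. Car3 made up most of their sum, with 132 and 29 reads, and Adipoq had 5 and 2 reads and Plin1 2 and 0. Their part in these results was not tested.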

How the data were processed

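Gene and transcript abundance was taken from 2 long-read libraries of mouse heart. The authors deposited whole-number read counts per transcript model, not normalized, with an annotation of the models. The genome build is mm10 and the annotation GENCODE M21, per the deposited descriptions. The aligner, its version, read filters and strand handling were not given in the sources used here. Model classes are those of the deposited tables.

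Counts of all models of a gene were summed, and CPM was computed per 1e6 mouse reads without the spike-ins. A pseudocount of 1 CPM was used in log2 ratios. The libraries were compared by exact two-sided binomial tests with Benjamini-Hochberg adjustment (threshold 0.05) over genes with a total of 10 or more reads, and top transcript shares by Fisher's exact test over genes with at least 20 reads in each. Intervals are 95% Clopper-Pearson intervals, and folds have the matching exact intervals. They cover counting error only, since reads without molecular identifiers are not independent molecules. Spliced models were matched between libraries by intron chain. A chi-square of 2.57 per gene over 8836 genes shows that the counts differ by more than sampling noise, so the files were kept as 2 samples. Near-identical copies were sought with blastn 2.17.0 at 90% identity over 50% of the shorter sequence. Calculations used Python 3.11.15, scipy 1.17.1, edgeR 4.0.16 (TMM factors) and DESeq2 1.42.0 (size factors) as alternatives. The tests were also run on simulated counts, in part with known changes, whose only spread was sampling noise. That simulation cannot check the calls at the larger spread of these counts. Alternatives covered scaling, minimums, the classes of reads counted, pseudocounts, length and replicates.

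The members, gene lists and tests were chosen with earlier results of these data known. The rule for named genes took all 10 members, their models with a total of 5 or more reads and, from each list, called genes, the 4 with the highest mean CPM and those without reads. Other models and splice choices were named after their values were seen. Some items that this rule names are withheld and not reported here.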

Additional observations from a re-analysis of the deposited data

How the results depend on the processing

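No member was called under any scaling (TMM, DESeq2 size factors), minimum of reads (5, 20 or none) or choice of read classes. Among all genes the count of calls ran from 214 with known transcripts only to 333 without genomic models, against 297. The calls split into 120 higher and 177 lower in replicate 2, but into 158 and 134 with TMM and 166 and 125 with DESeq2 size factors. No member was called for its top transcript without incomplete and genomic models or with a minimum of 10 reads. The summed level of the members, 189 CPM, was 92.8 CPM with known transcripts only, 164 CPM without genomic models, 118 CPM without incomplete and genomic models, and 174 to 203 CPM leaving out 1 replicate. The sums with fewer classes were still scaled to all mouse reads, so they could only fall. Known transcripts held 73.4% of the reads of all annotated genes. The log2 ratios with fewer classes were instead scaled to the reads of the classes kept. Minimums of reads and pseudocounts cannot change the sign of a log2 ratio, and scaling or the classes of reads counted reversed 7 ratios of members. Arntl became 0.011 with DESeq2 size factors, 0.58 with known transcripts only and 0.055 without incomplete and genomic models. Nr1d1 became 0.24 with known transcripts only and 0.22 without incomplete and genomic models, Clock 0.36 without incomplete and genomic models, and Tef -0.35 without genomic models. The cause was not tested, except that the Tef reads of the last exon are classed as genomic in replicate 2 only. Of the 4 called output genes, Kcnip2 was no longer called under each of the 3 choices of read classes, and the others stayed called in the same direction under these choices and both scalings. Members without reads in the classes kept gave no value. The share of Arntl reads at the acceptor 3 nt downstream was 24.1% to 33.3% leaving out 1 replicate and 23.3% on models with at least 2 reads, both chosen after seeing the data. No paired analysis was possible because the series holds 1 group. Depth limits most of all the Per genes, Hlf and Clock, with at most 9 reads in a library.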
